A study of Mus musculus with 6 samples.

Results

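Respiratory complex I is the NADH dehydrogenase at the entry of the mitochondrial respiratory chain, and the 44 genes described here are those of 18193 measured genes whose symbol starts with Nduf. The tissue was pancreatic islets, isolated from male CD1 mice at 8 weeks of age. Islets were kept overnight in culture medium and then given 200 uM CMPF, a circulating metabolite of furan fatty acids, or vehicle (0.1% ethanol) for 24 hours. The CMPF and vehicle groups held 3 arrays each, numbered 1 to 3 in both groups, and the series title gives metabolism as the subject. A probe set is a group of short probes that read 1 transcript, and a gene with several was read by the brightest of those assigned to it alone, judged by the mean over all 6 arrays. The 44 genes comprised 6 core subunits, 28 accessory subunits, 8 assembly factors, and Ndufa4 and Ndufa4l2, which carry the family name without being complex I subunits. Ndufs6, Ndufa11 and 6 further symbols occurred only on probe sets shared between genes and were left out.

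Complex I passes electrons from NADH to ubiquinone and pumps protons across the inner mitochondrial membrane. Its core subunits carry the flavin and the iron-sulfur clusters of the hydrophilic arm or form the proton channels of the membrane arm, and these channels are encoded by mitochondrial DNA. Accessory subunits surround this core, and assembly factors join the parts without staying in the finished enzyme. In beta cells of the islet, respiration raises the ATP to ADP ratio that triggers insulin secretion, which is why the expression of these genes is of interest in islets.

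No complex I gene was called different between CMPF and vehicle islets. With limma and Benjamini-Hochberg adjustment over all genes at a threshold of 0.05, 0 of the 44 passed (smallest adjusted p = 0.99995), and 0% of all genes passed in either direction. At an unadjusted p under 0.05 the count was again 0 of 44, where 1.13% of all genes qualified, and with the replicate number as a block it was also 0 of 44, where 3.8% of all genes qualified. The largest difference of any member was -0.22 log2 units, and 43 of 44 members lay within 0.2 of no difference, as did 92.0% of all genes. The 95% confidence interval of every member, for its 1 chosen probe set, excluded a change of 1.5-fold in either direction. The bounds ran from -0.53 to 0.53 over the 44 genes. The lowest bound was that of Ndufb4, whose set was too dim to tell from an undetected gene. Its interval therefore excludes no change in Ndufb4 RNA. These intervals rest on 3 arrays a group, and the labels do not say that the arrays came from separate animals, so the spread they rest on may be technical.

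The cell types in the samples were described with fixed markers. Summed beta cell markers (8 of 10 measured) read 15.90 to 16.04 log2 units in CMPF islets and 15.88 to 16.04 in vehicle islets. Acinar markers, from the enzyme-secreting tissue around islets, read 15.61 to 16.47 with CMPF and 14.87 to 16.38 with vehicle. On array 2 of both groups the acinar sum was above the beta cell sum, 16.47 against 15.90 with CMPF and 16.38 against 15.88 with vehicle. In all 3 pairs 6 of 8 measured acinar genes were higher with CMPF, as were 11.8% of all genes. The same held for 3 of 6 endothelial, 1 of 4 duct, 0 of 2 alpha cell and 0 of 5 macrophage genes. In all 3 pairs 1 beta cell and 1 macrophage gene were lower, as were 11.1% of all genes. Stellate and mesenchymal markers read 12.35 to 13.63 with CMPF and 12.82 to 13.37 with vehicle. The part of these cells in the complex I values was not tested, and in such bulk samples fewer cells of a type cannot be told apart from less RNA per cell. Arrays of 1 number deviated together, as described with the processing, and "pair" below means the CMPF and the vehicle array of 1 number.

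**Figure D1:**
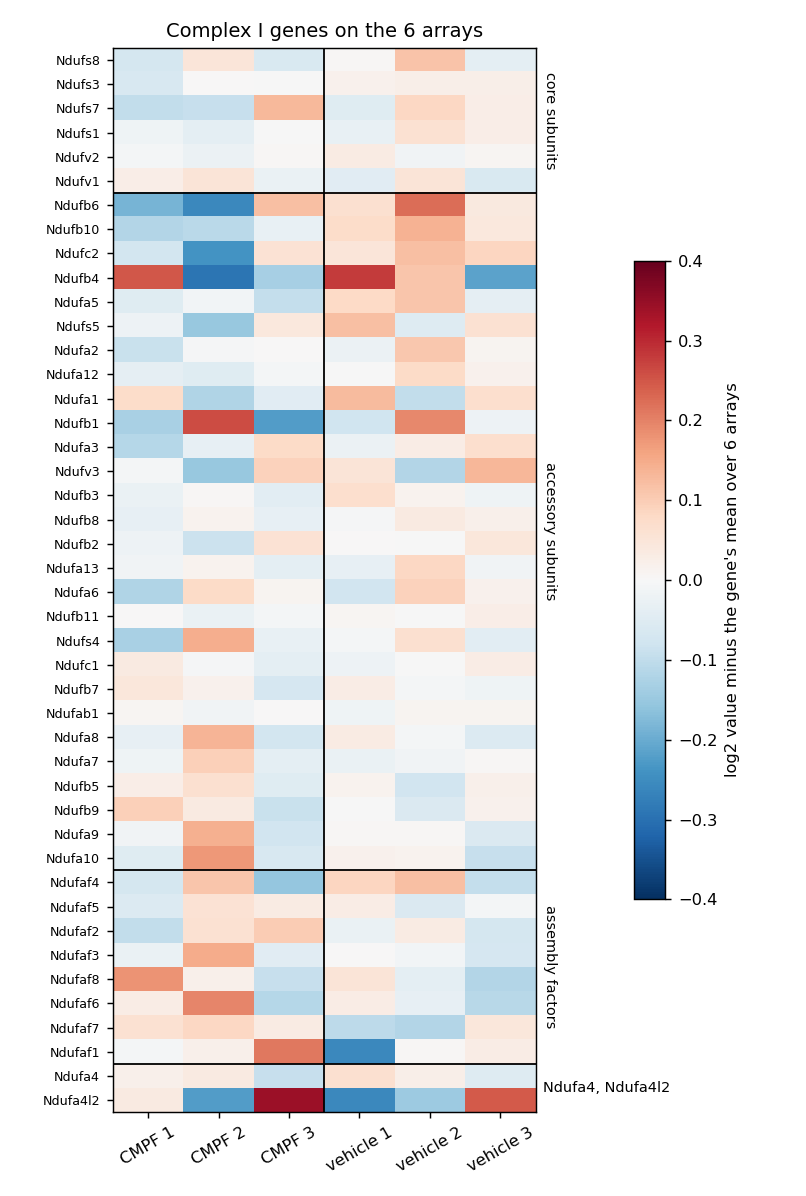
Log2 value of each complex I gene on each array minus the gene's mean over the 6 arrays (colour, log2 units), with genes in rows by class and the CMPF arrays left of the vehicle arrays. Most cells lie close to 0, and the strongest colours belong to Ndufb4, Ndufb1, Ndufb6 and Ndufa4l2, the genes with the largest range over the 6 arrays.

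The core subunits were the most even class. Their median range over the 6 arrays was 0.11 log2 units, against 0.20 for accessory subunits, 0.25 for assembly factors and 0.37 for all genes. Ndufs3, a subunit of the quinone-binding module that joins early in assembly, read 10.96, 11.02 and 11.02 with CMPF and 11.03, 11.04 and 11.04 with vehicle. The groups did not overlap, yet the difference was only -0.04 (SE 0.078). Ndufs8, which holds iron-sulfur clusters near the quinone site, read 11.17, 11.29 and 11.18 with CMPF and 11.25, 11.36 and 11.20 with vehicle. Its groups overlapped, each CMPF array lay below its vehicle partner, and the difference was -0.06 (SE 0.088). Ndufs7, the neighbouring iron-sulfur subunit, read 10.17, 10.17 and 10.39 with CMPF and 10.22, 10.35 and 10.29 with vehicle, with the third CMPF array above all others. Its difference was -0.04 (SE 0.098).

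The electron input module gave the same picture. Ndufv1, which binds NADH and the flavin, was the only core subunit with a positive difference by its brightest probe set, 0.03 (SE 0.082). It read 11.03, 11.05 and 10.97 with CMPF and 10.96, 11.05 and 10.94 with vehicle. The next brightest sets of Ndufs7 and Ndufs8 gave 0.09 and 0.04, against -0.04 and -0.06 by the brightest, and that of Ndufv2 gave -0.05. Ndufv2, its iron-sulfur partner, read 11.48, 11.47 and 11.49 with CMPF and 11.52, 11.47 and 11.50 with vehicle. That is a range of 0.058 over 6 arrays and a difference of -0.018 (SE 0.077). Ndufs1, the large iron-sulfur subunit, read 9.13, 9.11 and 9.15 with CMPF and 9.12, 9.21 and 9.18 with vehicle, a difference of -0.04 (SE 0.079). The median difference of the 6 core subunits was -0.04, with pair medians of -0.046, -0.045 and -0.013, while the median of all genes was 0.0018. Of the mitochondrially encoded subunits, 1 of 7 was measured, ND5, a proton channel, with a difference of -0.13 (SE 0.110) and pair differences of 0.15, -0.35 and -0.18.

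Among accessory subunits the smallest p belonged to Ndufb10, a subunit of the distal membrane arm on its intermembrane-space side. Ndufb10 read 10.13, 10.14 and 10.22 with CMPF, a mean of 10.17 ± 0.048 (SD, n = 3), and 10.32, 10.39 and 10.29 with vehicle, a mean of 10.34 ± 0.050 (SD, n = 3). All 3 CMPF arrays lay below all vehicle arrays, which held for 3 of the 44 members (Ndufb10, Ndufa12 and Ndufs3) and for 2.11% of all genes. The difference was -0.17 (SE 0.082), with a 95% interval from -0.36 to 0.02 and a limma adjusted p of 0.99995. Treatment took 81.8% of its sum of squares over the 6 arrays, against a median of 11.9% over the 44 genes and 7.58% over all genes. No member had CMPF wholly above vehicle, as 2.41% of all genes had.

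Ndufb6, a membrane arm subunit, had the largest difference, -0.22 (SE 0.122), but not in every pair. It read 11.19, 11.12 and 11.49 with CMPF and 11.44, 11.60 and 11.42 with vehicle, so that the third CMPF array lay within the vehicle values. Without that array its difference was -0.33, and without CMPF array 2 it was -0.14. Ndufc2, another small membrane arm subunit, read 12.09, 11.93 and 12.22 with CMPF and 12.21, 12.29 and 12.25 with vehicle. Its difference was -0.17 (SE 0.100), with -0.12, -0.36 and -0.03 in the pairs, and it was -0.09 without CMPF array 2. Ndufa12, a hydrophilic arm subunit, read 11.39, 11.37 and 11.42 with CMPF and 11.42, 11.50 and 11.44 with vehicle. Its groups did not overlap by a narrow margin, and the difference was -0.06 (SE 0.079). Ndufa5, of the quinone module, differed by -0.10 (SE 0.085), Ndufs5, on the intermembrane-space face, by -0.09 (SE 0.095) and Ndufa2, of the NADH-oxidising module, by -0.06 (SE 0.084), each with all 3 CMPF arrays below their partners.

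**Figure D2:**
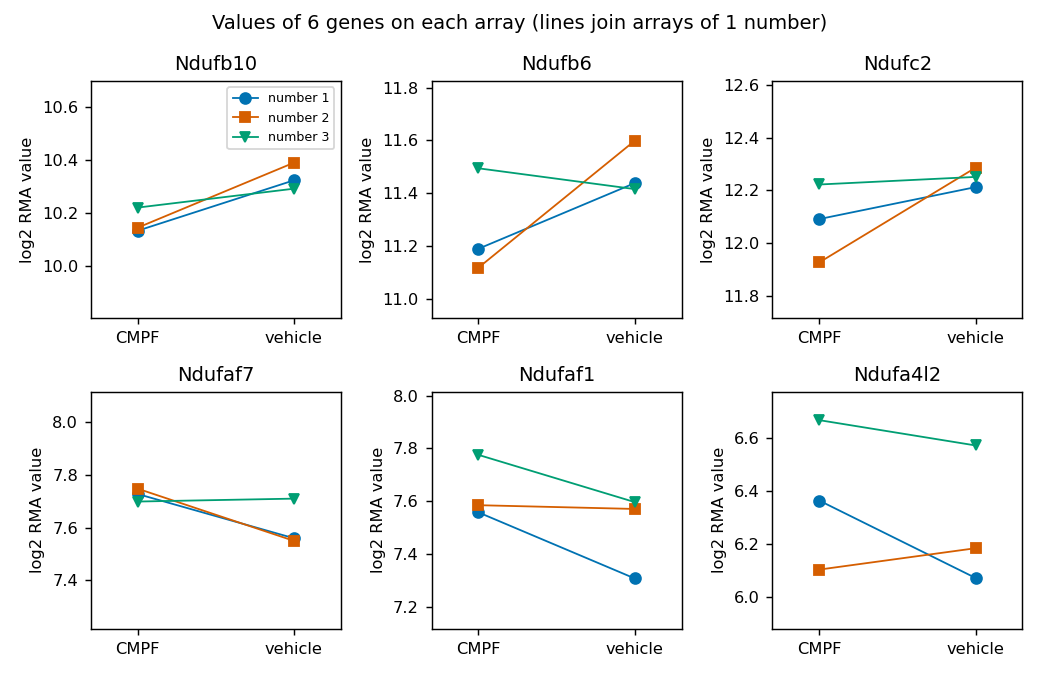
Log2 RMA values (vertical axes, each spanning the same width) of the 5 complex I genes with the smallest p and of Ndufa4l2 on each array, CMPF left and vehicle right, with lines that join arrays of 1 number. Ndufb10 is lower with CMPF on all 3 lines and Ndufb6 on lines 1 and 2 only, and the third array of Ndufa4l2 is the highest in both groups.

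Other accessory subunits mostly differed less by their brightest probe sets. Ndufab1, the mitochondrial acyl carrier protein that also serves fatty acid synthesis, read 11.57, 11.55 and 11.57 with CMPF and 11.55, 11.58 and 11.58 with vehicle. Its range of 0.030 log2 units was the smallest of the 44 genes. Ndufb8, often used as an immunoblot marker of complex I, differed by -0.03 (SE 0.077), Ndufa13, also known as GRIM-19, by -0.03 (SE 0.081), and Ndufb11, of the membrane arm, by -0.02 (SE 0.077). Ndufs4, whose loss in mice gives a Leigh-like disease, differed by -0.0088 (SE 0.099) by its brightest set, at a mean level of 9.53. The next brightest Ndufs4 set, at 7.50, gave -0.20, with -0.27, -0.30 and -0.04 in the pairs. Ndufa9, which sits where the arms join, differed by 0.03 (SE 0.091). Ndufa1, a small membrane arm subunit, differed by -0.06 (SE 0.100). The single-gene probe set of Ndufb4 read 3.25 to 3.79 with CMPF and 3.33 to 3.82 with vehicle, under the 25th percentile of gene levels (4.53), where a dim gene cannot be told from an undetected one. Ndufb1, read at 6.68 to 7.16 with CMPF and 6.82 to 7.09 with vehicle, differed by -0.06 (SE 0.147), and its arrays of number 2 were the highest in both groups.

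Of the 8 assembly factors none passed, and 7 had a positive difference, as had 9232 of all 18193 genes. Their median was 0.06, with pair medians of -0.014, 0.086 and 0.023. That median was 0.012 without CMPF array 2, 0.030 without vehicle array 3 and 0.024 without pair 2. The assembly factors were also dimmer, at a median level of 7.62 against 11.01 for core and 11.37 for accessory subunits. Class and brightness thus largely coincided, and the part of each in the sign was not tested. Ndufaf1, which with Ecsit and Acad9 builds the membrane arm, read 7.56, 7.58 and 7.78 with CMPF and 7.31, 7.57 and 7.60 with vehicle. The first vehicle array was the lowest, and the difference of 0.15 (SE 0.114) was 0.06 without it. Ndufaf7, a mitochondrial methyltransferase, read 7.73, 7.75 and 7.70 with CMPF and 7.56, 7.55 and 7.71 with vehicle. Its difference of 0.12 (SE 0.086) was present in pairs 1 and 2 and was -0.01 in pair 3. Ndufaf6, needed early in complex I assembly, differed by 0.08 (SE 0.105), with 0.23 in pair 2 and values near 0 in the others, and -0.0041 without CMPF array 2.

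The early-acting partners Ndufaf3 and Ndufaf4 differed by 0.05 (SE 0.090) and -0.08 (SE 0.108). The positive value of Ndufaf3 rested on CMPF array 2, with pair differences of -0.03, 0.16 and 0.02, and was -0.01 without that array, while Ndufaf4 stayed negative at -0.15. Ndufaf2, a chaperone of late assembly, differed by 0.04 (SE 0.091). Ndufaf4 was the only assembly factor lower in all 3 pairs, and Ndufaf1 and Ndufaf8 were higher in all 3. Of 9 measured assembly factors with other names, 0 passed, with a median of -0.04. In all 3 pairs 3 of them were lower and 1 was higher, as were 11.1% and 11.8% of all genes. Tmem186 differed by -0.13 (SE 0.093), Timmdc1 by -0.10 (SE 0.086) and Ecsit by -0.08 (SE 0.093), all lower in all 3 pairs. Of these 9 factors 3 had a positive and 6 a negative difference. No test was made of the difference between the classes.

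Promoter sequence is shown for the 5 members with the smallest p, Ndufb10, Ndufb6 and Ndufc2 with negative and Ndufaf7 and Ndufaf1 with positive differences, to let the reader compare genes that differed in sign. Each is the 250 bases before the RefSeq start site on GRCm38.p6, written 5′ to 3′ on the gene's strand. Capitals mark matches on either strand to the NRF1 core TGCGCA, the ETS (GABPA) motif CCGGAAG, the YY1 core AAGATGG or the hypoxia response core ACGTG.
Ndufb10, chr17:24724424-24724673, minus strand: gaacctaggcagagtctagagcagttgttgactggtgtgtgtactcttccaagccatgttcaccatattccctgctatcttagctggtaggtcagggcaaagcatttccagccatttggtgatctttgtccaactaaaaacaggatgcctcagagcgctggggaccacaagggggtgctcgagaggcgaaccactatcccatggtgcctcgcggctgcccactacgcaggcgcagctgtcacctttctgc
Ndufb6, chr4:40279422-40279671, minus strand: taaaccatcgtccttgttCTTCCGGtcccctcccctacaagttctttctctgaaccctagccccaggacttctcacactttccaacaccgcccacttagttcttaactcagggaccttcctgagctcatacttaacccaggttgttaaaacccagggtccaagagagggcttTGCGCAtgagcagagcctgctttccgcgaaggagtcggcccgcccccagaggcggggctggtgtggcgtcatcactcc
Ndufc2, chr7:97399753-97400002, plus strand: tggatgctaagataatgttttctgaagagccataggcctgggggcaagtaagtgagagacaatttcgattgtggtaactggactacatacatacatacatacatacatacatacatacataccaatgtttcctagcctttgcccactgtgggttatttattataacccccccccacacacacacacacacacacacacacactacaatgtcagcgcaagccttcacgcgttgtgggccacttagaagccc
Ndufaf7, chr17:78936885-78937134, plus strand: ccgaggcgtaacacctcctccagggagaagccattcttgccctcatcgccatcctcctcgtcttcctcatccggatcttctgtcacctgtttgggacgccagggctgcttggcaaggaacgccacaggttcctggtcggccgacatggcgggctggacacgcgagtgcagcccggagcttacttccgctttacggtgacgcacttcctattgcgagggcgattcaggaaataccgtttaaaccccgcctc
Ndufaf1, chr2:119662835-119663084, minus strand: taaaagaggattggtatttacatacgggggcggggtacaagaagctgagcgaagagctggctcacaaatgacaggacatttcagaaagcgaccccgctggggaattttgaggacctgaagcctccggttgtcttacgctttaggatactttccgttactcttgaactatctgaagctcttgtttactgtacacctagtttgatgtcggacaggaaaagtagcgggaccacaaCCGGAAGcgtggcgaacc

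Such windows were found for 39 of the 44 members. The NRF1 core lay in 7 of 39 (17.9%), against 6.66% of 27025 windows of all genes, and the ETS motif in 5 of 39 (12.8%), against 7.05%. NRF1 and GABPA are known activators of nuclear genes for mitochondrial proteins. Of the sequences printed, Ndufb6 held an ETS and an NRF1 match and Ndufaf1 an ETS match near the start site, while Ndufb10, Ndufc2 and Ndufaf7 had none of the 4 motifs. The hypoxia core lay in 6 of 39 (15.4%), against 16.6% of all windows, and the YY1 core in 0 of 39, against 4.53%. A match is a description of letters and shows no binding. Among regulators of mitochondrial biogenesis, 13 measured, 0 passed. Tfam, which packages and transcribes mitochondrial DNA, differed by -0.16 (SE 0.105), with all 3 CMPF arrays below the vehicle arrays, as in 2.11% of all genes. Gabpb1, the partner of GABPA, differed by 0.09 (SE 0.091), and Pprc1, a coactivator, by -0.08 (SE 0.092).

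The direction of the small differences was uneven over the family. Of the 44 genes, 29 had a negative difference, 16 (36.4%) were lower with CMPF in all 3 pairs and 2 (4.55%) were higher in all 3. Of all genes measured, 11.1% were lower in every pair and 11.8% higher. The 16 comprised 12 accessory subunits, 3 core subunits and 1 assembly factor, and 13 of them differed by less than 0.1, with a median of -0.06. With a pair left out, the count lower in both remaining pairs was 20, 20 and 21 of 44 without pairs 1, 2 and 3, against 22.0%, 22.7% and 27.2% of all genes and 29.9%, 34.9% and 47.6% of the bright genes described next. Without pair 3 the share of all 44 members, 47.7%, lay near that of bright genes. Without pair 1 and without pair 2 it was 45.5%, above that of bright genes. These member shares include the members that are not bright, so they do not compare bright members with bright genes.

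Most of the family is bright on this array, which depends on the probes as well as on the RNA, and bright genes as a whole lay slightly lower with CMPF. Above the 90th percentile of mean level, which held 32 of the 44 members, 22.1% of 1820 genes were lower in all 3 pairs and 68.7% had a negative difference. Of the 32 bright members 15 (46.9%) were lower in all 3 pairs and 24 had a negative difference. Their median difference of -0.029 stood beside -0.033 for all 1820 bright genes, with pair medians of -0.045, -0.023 and -0.024 beside -0.054, -0.031 and -0.0024. The 12 members at or below that percentile had a median difference of 0.034. After a second quantile normalization of the gene values, 6 of 44 members (13.6%) were lower in all 3 pairs, against 13.2% of bright genes and 11.7% of all genes. This step gives all arrays 1 distribution of gene values, so by design it reduces a shift shared by bright genes. Their median was -0.033 before and -0.0041 after it. The lower counts are therefore no separate result, and the 44 include members that are not bright. The median difference of the 44 was -0.024 in the deposited values and 0.0060 after that step, and in the deposited values it was -0.0094 without vehicle array 2 and -0.016 without vehicle array 1.

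**Figure D3:**
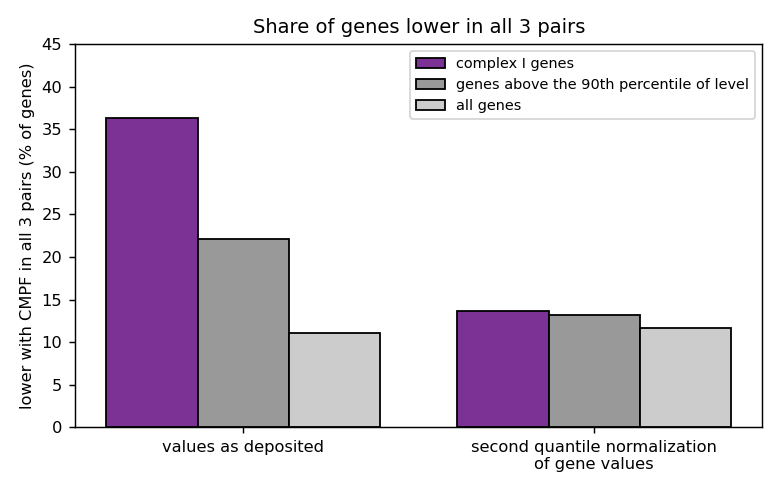
Share of genes lower with CMPF in all 3 pairs (vertical axis, percent) for complex I genes, genes above the 90th percentile of level and all genes, in the values as deposited and after a second quantile normalization. The 3 shares were 36.4%, 22.1% and 11.1% as deposited and 13.6%, 13.2% and 11.7% after it. By design the second normalization reduces a shift shared by bright genes.

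**Figure D4:**
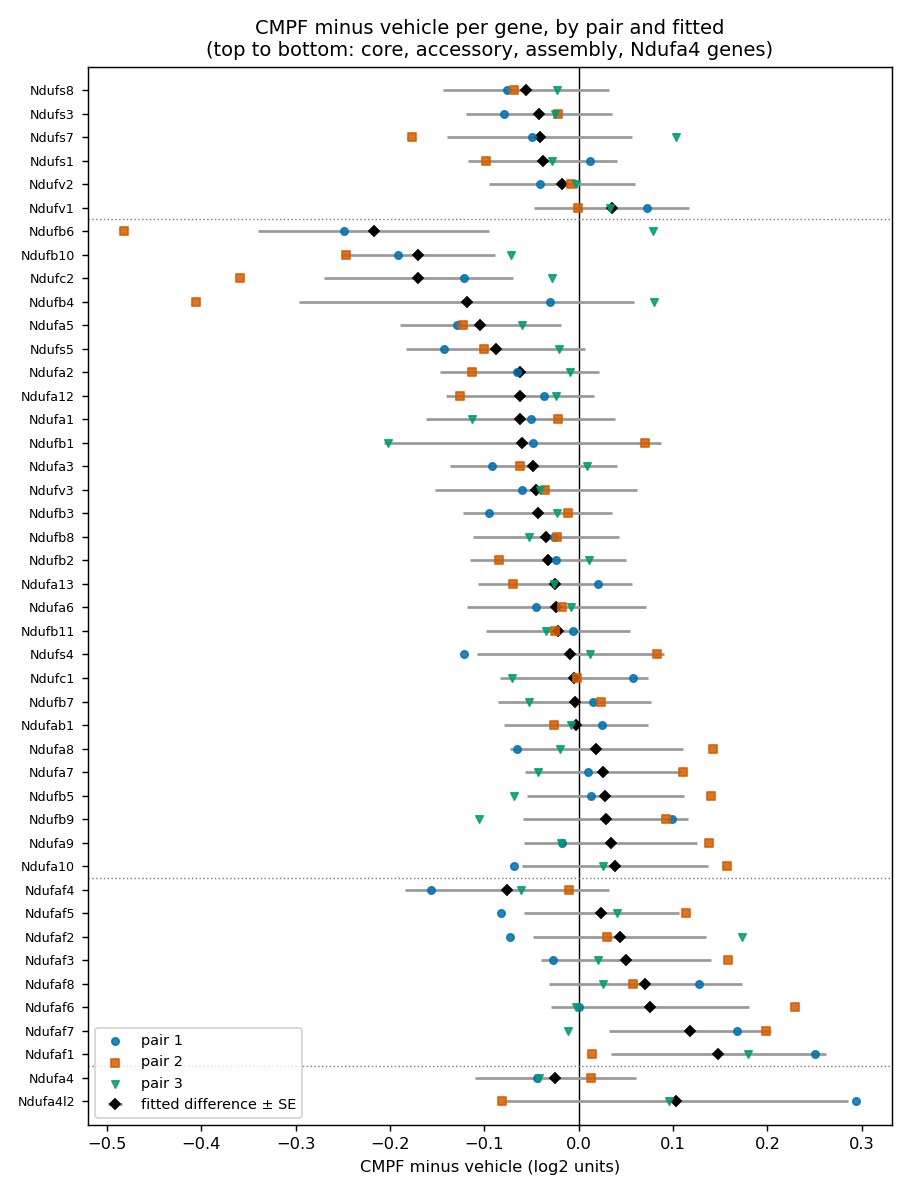
CMPF minus vehicle (horizontal axis, log2 units) for each complex I gene, with the fitted difference and its SE in black and the 3 pair differences as coloured symbols, core subunits at the top and the Ndufa4 genes at the bottom. The SE bar crosses 0 for most genes, and the pair symbols of Ndufb6, Ndufc2 and Ndufb4 spread most on the negative side, with pair 2 the lowest in each.

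Probe sets of 1 gene gave a further reading of the same RNA. Of the 44 genes, 22 had more than 1 single-gene probe set, and in 12 of them the next brightest set had the same sign as the brightest. Among 20 genes with at least 2 sets above the median level, the sets agreed in sign for 11, and the difference spread over a median of 0.057 and at most 0.20 log2 units between sets. The brightest set of Ndufb6 gave -0.22, while the next one, close to it in brightness, gave -0.02. For Ndufc2 the sets gave -0.17, -0.03 and -0.02, and for Ndufs8, with 6 sets, -0.06 to 0.08. Of 7 genes lower in all 3 pairs that had other bright sets, 0 were lower in all 3 pairs by every bright set. For Ndufa5 both sets gave close values, -0.10 and -0.09. Ndufb10 had 1 single-gene set, so its difference has no such check.

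**Figure D5:**
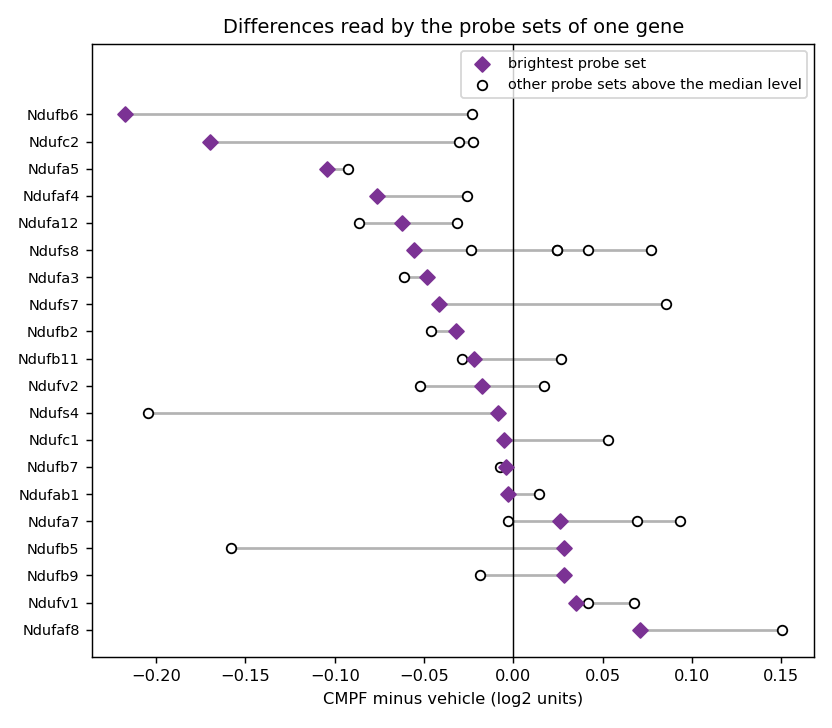
CMPF minus vehicle (horizontal axis, log2 units) by each probe set above the median gene level for the 20 genes with more than 1 such set, filled diamonds for the brightest set and open circles for the others. The sets of Ndufb6, Ndufs4 and Ndufb5 lie farthest apart, by 0.19 to 0.20 log2 units.

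The replicate number accounted for more of the variation than treatment. Over the 44 genes the median share of the sum of squares was 57.4% for the number, with 2 degrees of freedom, and 11.9% for treatment, with 1. The shares over all genes were 59.7% and 7.58%. The share for the number was highest in Ndufa6, an accessory subunit that binds the acyl carrier protein, at 96.6%, from 11.23, 11.43 and 11.36 with CMPF and 11.27, 11.44 and 11.37 with vehicle. Ndufv3, an accessory subunit of the flavin module, came next with 95.0%, from 12.07, 11.93 and 12.17 with CMPF and 12.13, 11.97 and 12.22 with vehicle. Treatment took more than 50% in 5 of the 44 genes (11.4%), Ndufb10, Ndufa12, Ndufaf7, Ndufa5 and Ndufs3, against 5.39% of all genes.

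Ndufa4 and Ndufa4l2 differ in role from the rest. Ndufa4 is now placed in complex IV and read 11.91, 11.93 and 11.80 with CMPF and 11.96, 11.92 and 11.84 with vehicle, a difference of -0.02 (SE 0.085). Ndufa4l2 is induced by HIF1 under low oxygen and restrains complex I activity. It read 6.36, 6.10 and 6.67 with CMPF and 6.07, 6.18 and 6.57 with vehicle, the widest range of the family at 0.60, with the third array the highest in both groups. Its difference was 0.10 (SE 0.182). The 17 HIF1 target genes fixed as a list had median deviations from their own means of -0.65, -0.02 and 0.64 on CMPF arrays 1 to 3 and of -0.34, -0.01 and 0.45 on vehicle arrays 1 to 3. The number took 85.6% to 97.0% of their sums of squares, and 83.9% of that of Ndufa4l2. Among them 0 passed, and 5 had a positive and 12 a negative difference. CMPF was higher in 0 of the 17 in pair 1, in 6 in pair 2 and in all 17 in pair 3, with pair medians of -0.31, -0.05 and 0.18. The 3 with the smallest p were Pdk1 at -0.25 (SE 0.371), P4ha1 at -0.16 (SE 0.339) and Aldoa at -0.10 (SE 0.179).

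The other respiratory chain complexes were read in the same limma fit. Over the 8 lists of other genes, 77 were measured, 0 passed the adjusted threshold, 0 had an unadjusted p under 0.05, and with the replicate block 1 did (Cox7c, adjusted p = 0.979). Complex II, which feeds electrons from succinate, had 1 of 4 genes lower and 0 higher in all 3 pairs, with Sdhd at -0.04 (SE 0.078), Sdhb at 0.04 (SE 0.100) and Sdhc at 0.0058 (SE 0.108). Complex III had 1 of 9 lower and 1 higher, with Uqcrc2 at -0.18 (SE 0.136), Uqcr11 at -0.08 (SE 0.083) and Uqcr10 at -0.04 (SE 0.089). Complex IV had 1 of 9 lower and 1 higher, with Cox5a at -0.17 (SE 0.118), Cox8a at -0.05 (SE 0.104) and the dim probe set of Cox7c at 0.32 (SE 0.190). The ATP synthase had 3 of 15 lower and 2 higher, with Atp5d at 0.16 (SE 0.102), Atp5a1 at 0.08 (SE 0.081) and Atp5pb at -0.07 (SE 0.084). The medians were 0.0016 for complex II, -0.023 for complex III, 0.0056 for complex IV and -0.023 for the ATP synthase, beside -0.024 for the complex I family. Uqcrc2 and Cox5a shared a pattern over pairs with the brightest probe set of Ndufb6. The pairs gave -0.20, -0.35 and 0.03 for Uqcrc2, -0.23, -0.35 and 0.06 for Cox5a and -0.25, -0.48 and 0.08 for that Ndufb6 set. This likeness was noticed after the values were seen. The other Ndufb6 set gave -0.11, 0.04 and -0.0041 and did not share it.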

How the data were processed

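RNA from isolated islets was hybridised to an Affymetrix mouse 3' expression array, 3 arrays with CMPF and 3 with vehicle. Values were deposited as log2 numbers. The submitters' processing notes name RMA and Affymetrix Expression Console 1.1; its settings are not stated in the labels. RMA corrects background, sets arrays to 1 distribution at probe level and compresses dim differences. The values carry no detection call, and precision is limited by the number of arrays. The array medians lay between 5.08 and 5.15. Gene names came from the platform annotation, updated by Entrez ID to RefSeq (GRCm38.p6), with 34741 of 34945 single-gene probe sets matched and 0 symbols changed. The annotation names no build, so coordinates are given only for RefSeq promoter windows.

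Differences are CMPF minus vehicle from limma 3.58.1 in R 4.3.3 (lmFit, eBayes), fitted on all 18193 genes, two-sided, with standard errors from the fit without a block and no filter. In simulated data with 50 of 18193 genes changed by each size, limma recovered 34% of changes of 0.5 log2 units and 78% of changes of 1, in the comparison of CMPF with vehicle. In that run 6 unchanged genes were called. Changed genes were drawn from all genes and arrays were simulated as independent. The rates therefore do not describe complex I genes, whose median SD was 0.072 against 0.145 for all genes. Deviations from the group mean correlated at 0.488 to 0.638 over all genes between arrays of the same number, and at 0.0885 or less between others of different groups. Deviations within a group sum to 0, so high values for the same number push the others down. Arrays of 1 number were matched as pairs by rule, and the labels state no pairing. Over the 44 members the correlations between arrays of the same number were 0.387 to 0.626. Named were the core subunits measured, the 10 other members with the smallest p, those with extreme levels or ranges, 13 fixed names (12 measured) and the 3 smallest p of each other list. Genes outside this rule were chosen after their values were seen. Members and lists were chosen with earlier results of these data known. The alternatives tried were the block, arrays and pairs left out, scaling, probe set means, filters and array weights.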

Additional observations from a re-analysis of the deposited data

How the results depend on the processing

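The count of genes past the threshold stayed at 0, for all genes, the 44 members and the other respiratory chain lists, with the replicate block (smallest adjusted p of a member = 0.979 by limma), without each array or pair, with array weights, both filters on dim genes, probe set means, median centring and a second quantile normalization. No call could therefore be lost, and the block changed no call. The count of members at an unadjusted p under 0.05 was 0, and was 1 with the filter at the median level (Ndufb10); it ranged from 0 to 1 with arrays or pairs left out, being 1 without CMPF 3 and without pair 3 (Ndufb6). The second quantile normalization gave median differences of 0.0060 for the family, -0.0098 for core and -0.0035 for accessory subunits, and 6 genes lower in all 3 pairs against 16. By design that step reduces a shift shared by genes of like brightness, and other causes were not tested. The core median of -0.040 was -0.0015 with probe set means and ran from -0.053 to -0.015 with arrays or pairs left out, lowest in size without vehicle 2; the family median ran from -0.023 to -0.0094 and the assembly factor median of 0.061 from 0.012 to 0.091. The count higher in all 3 pairs was 2, and 1 with median centring, 3 with the second quantile normalization and 4 with probe set means. Signs of single members, all uncalled, changed for 0 to 12 genes a setting, with 12 without pair 2.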
